A study of Mus musculus with 9 samples.

Results

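Bone morphogenetic protein (BMP) signalling was followed through 10 genes in mouse embryonic brain at day 14 of gestation. They are the 4 Id genes (Id1, Id2, Id3 and Id4), the ligands Bmp4 and Bmp7, the receptor Bmpr1a, the inhibitory Smads Smad6 and Smad7, and the BMP target Msx1. They were chosen by symbol from the table of 56748 genes, and all 10 were present and among the 17171 genes with enough counts to test. The 9 RNA-seq libraries form 3 groups of 3: saline controls, embryos exposed to poly(I:C), a double-stranded RNA analogue used to imitate a virus, and embryos exposed to valproic acid, an anticonvulsant and inhibitor of histone deacetylases. The labels give no transgene, dose, day or route of exposure, strain, litter, sex or batch. Nothing states that replicates are separate embryos, so the p-values cover the spread between these libraries, which may in part be technical.

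BMP ligands bind a pair of receptor serine/threonine kinases, and the type I receptors, among them Bmpr1a, phosphorylate Smad1, Smad5 and Smad9. These join Smad4, enter the nucleus and switch on target genes, including Id genes, Msx1 and the inhibitory Smads, which feed back on the pathway. Id proteins carry a helix-loop-helix domain without the basic region that touches DNA, so they bind E proteins such as Tcf3, Tcf4 and Tcf12 and keep them from pairing with proneural factors. In the embryonic brain BMPs are made at the dorsal midline, in the choroid plexus and in the meninges, and Id genes are known for keeping neural progenitors undifferentiated.

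Of the 10 genes, Id2 alone passed the test in a comparison, so the 250 bases before its RefSeq start are shown beside those of 2 relatives that did not pass. The sequences come from RefSeq on GRCm38.p6, which precedes the build named by the submitters, and run 5′ to 3′ on the strand of the gene. Capitals mark GGCGCC, a GC-rich element that BMP-responsive Smads are known to bind. The Id2 window is chr12:25096093-25096342 on the minus strand, the Id3 window chr4:136143572-136143821 and the Id4 window chr13:48260866-48261115, both on the plus strand.
Id2: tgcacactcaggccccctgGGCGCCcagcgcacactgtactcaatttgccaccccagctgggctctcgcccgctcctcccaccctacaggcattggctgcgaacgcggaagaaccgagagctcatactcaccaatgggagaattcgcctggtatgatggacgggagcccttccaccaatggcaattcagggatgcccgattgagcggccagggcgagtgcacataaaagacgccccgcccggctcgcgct
Id3: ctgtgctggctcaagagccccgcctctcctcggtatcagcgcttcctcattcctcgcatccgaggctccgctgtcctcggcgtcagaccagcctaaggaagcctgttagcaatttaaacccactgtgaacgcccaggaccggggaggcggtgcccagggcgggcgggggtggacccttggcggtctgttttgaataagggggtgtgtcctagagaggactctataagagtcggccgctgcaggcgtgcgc
Id4: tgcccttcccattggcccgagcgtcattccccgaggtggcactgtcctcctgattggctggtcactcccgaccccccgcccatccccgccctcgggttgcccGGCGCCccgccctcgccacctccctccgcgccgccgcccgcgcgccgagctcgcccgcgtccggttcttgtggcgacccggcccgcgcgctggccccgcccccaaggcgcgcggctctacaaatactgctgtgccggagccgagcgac

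The element begins 231 bases before the start in Id2 and 148 bases before it in Id4, and the Id3 window holds none. The RefSeq table had a window for 7 of the 10 genes (Id2, Id3, Id4, Bmp4, Bmpr1a, Smad6 and Msx1). GGCGCC, which reads the same on both strands, was in 3 of these 7 (Id2, Id4 and Bmpr1a) and in 9.59% of all 32851 windows of this length. The palindrome GTCTAGAC (0.167% of all windows) and CAGACA, read on both strands (17.1%), were in none of the 7; these motifs share no stretch with GGCGCC. G and C made up 62.8% to 78.8% of the 7 windows, against a median of 52.4% over all windows. These are matches of letters, and binding was not measured.

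Library totals ran from 15400000 to 19883100 counts. The brain label was checked against regional markers, in counts scaled to library size (CPM). The dorsal forebrain gene Emx1 was at 45.3 ± 2.49 CPM in control and 45.6 ± 2.68 with poly(I:C) (SD, n = 3). It rose to 54.2 ± 3.33 CPM with valproic acid (edgeR adjusted p = 0.0274), a call lost in 4 of 6 fits that left out 1 library (edgeR adjusted p up to 0.107) and with Y-linked expression or Xist as a covariate. The midbrain and hindbrain genes En1 and En2 reached at most 0.384 and 0.884 CPM, Hoxb3 had at most 3 counts in a library and Hoxb5 had 0 in all 9, although the series text says whole brain. Xist, an RNA of the inactive X chromosome, was found at 979 CPM or more in all valproic acid libraries and poly(I:C) replicate 3, and was below 0.3 CPM elsewhere. Y-linked transcripts were at 0 in those 4 libraries and in control replicate 3. Control replicate 3 held neither kind of transcript, so its sex cannot be read from them. As covariates, Y-linked expression places it with the libraries that hold Xist, and Xist places it with those that do not. In the other libraries sex moves with valproic acid except in poly(I:C) replicate 3, which alone held Xist without that exposure. Between control and valproic acid the effect of sex cannot be told apart from that of the exposure. Fits with Xist as a covariate rest on poly(I:C) replicate 3, and those with Y-linked expression on it and control replicate 3. A call lost with either covariate can come from a wider SE alone. In bulk tissue, fewer cells of a type and less RNA per cell cannot be told apart.

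Levels of different genes were compared per kilobase of annotated exon. In control brains Id4 was the highest of the 10, at 81.7 ± 2.91 CPM per kilobase (mean ± SD, n = 3), followed by Id2 at 37.8 ± 2.24 and Id3 at 14.9 ± 1.38. Bmpr1a was at 13.3 ± 0.718, Id1 at 8.50 ± 0.191 and Bmp7 at 7.44 ± 0.465 CPM per kilobase. Smad7 (3.14 ± 0.129), Msx1 (2.62 ± 0.143), Smad6 (1.83 ± 0.150) and Bmp4 (1.44 ± 0.143) were lowest. Neighbours in this order did not overlap among the controls, though Bmpr1a (highest 13.9) and Id3 (lowest 14.1) were close. Under poly(I:C) the libraries of Bmp4 and Smad6 overlapped, as did those of Bmpr1a and Id3. Under valproic acid Bmp4 overlapped Smad6, Smad6 overlapped Msx1, and Msx1 overlapped Smad7. The length is that of all annotated exons, so a gene with exons unused in this tissue is understated.

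**Figure D1:**
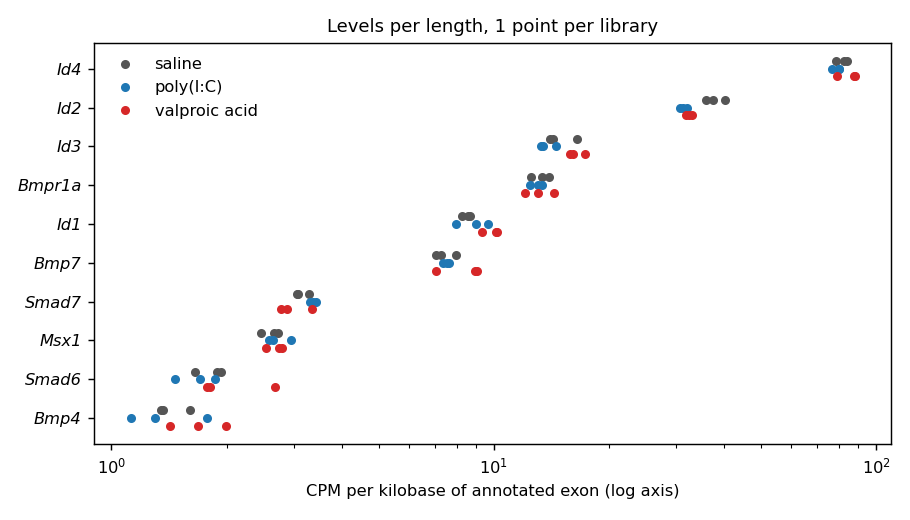
Level of each of the 10 genes in CPM per kilobase of annotated exon (horizontal log axis), 1 point per library, coloured by group. Id4 and Id2 stand above the other 8 genes in every library, and Bmp4, Smad6, Msx1 and Smad7 are at the low end.

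Id2 fell under both exposures, and no other member passed the test in any comparison. A gene was called where its edgeR quasi-likelihood p, adjusted over all tested genes by Benjamini-Hochberg, was under 0.05. For valproic acid against control 0 of the 10 genes were called higher and 1 lower, where 6.35% of all tested genes were called (3.57% higher, 2.78% lower), and 1 of the 10 had an unadjusted p under 0.05, where 22.1% of all did. For poly(I:C) against control 0 were called higher and 1 lower, where 0.536% of all were called (0.262% higher, 0.274% lower), and 1 had an unadjusted p under 0.05, where 12% of all did. In the direct comparison of the exposures 0 of the 10 were called by edgeR or DESeq2, where edgeR called 2.59% of all genes (1.42% higher under valproic acid, 1.18% lower), and 2 of the 10, Id3 and Id4, had an unadjusted p under 0.05, where 16.7% of all did. The median log2 difference of the 10 was 0.09 for valproic acid and -0.04 for poly(I:C), beside -0.00328 and -0.00299 over all tested genes.

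Id2 is known from both progenitors and young neurons of the cortex. Its level was 98.1, 87.3 and 91.3 CPM in control replicates 1 to 3. It was 74.9, 77.9 and 76.2 CPM in the poly(I:C) libraries and 78.8, 80.6 and 77.4 CPM in the valproic acid libraries, from 1185 to 1836 counts per library. All 6 exposed libraries were below all 3 controls, and the exposed groups overlapped each other. Of all tested genes 25.6% (valproic acid) and 18.4% (poly(I:C)) did not overlap the controls, in one direction or the other. Id2 fell by 0.22 on the log2 scale under valproic acid (SE 0.0495, 95% interval -0.33 to -0.12, edgeR adjusted p = 0.0168). It fell by 0.27 under poly(I:C) (SE 0.0494, interval -0.38 to -0.17, edgeR adjusted p = 0.0260). The mean was 92.2 ± 5.45 CPM in control, 76.3 ± 1.54 under poly(I:C) and 78.9 ± 1.56 under valproic acid (SD, n = 3 each). Both comparisons use the same 3 controls. The exposures differed from each other by 0.05 on the log2 scale (interval -0.06 to 0.16, edgeR adjusted p = 0.681).

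The calls of Id2 depended on the libraries in the fit, while its log2 difference from control stayed negative in every fit. Without 1 library that difference ran from -0.26 to -0.18 under valproic acid. Fits without 1 library also called fewer genes of all tested, 38 to 63 for poly(I:C) against control, where 92 were called with all libraries. Under valproic acid the call was lost without control replicate 1 (log2 difference -0.18, edgeR adjusted p = 0.0809), the control with the highest Id2, and without valproic acid replicate 3 (-0.21, edgeR adjusted p = 0.0552). Under poly(I:C) it was lost in 5 of 6 fits that left out 1 library and kept without control replicate 2, with log2 differences of -0.31 to -0.23 and edgeR adjusted p up to 0.120. With Y-linked expression as a covariate the valproic acid call was lost (-0.21, edgeR adjusted p = 0.114), and with Xist both were (-0.22 and -0.27, edgeR adjusted p = 0.491 and 0.108). With Xist the SE under valproic acid went from 0.0495 to 0.0956, so that loss came with a wider SE and not a smaller fall. The poly(I:C) fit with Xist was close to the fit without poly(I:C) replicate 3 (-0.27, edgeR adjusted p = 0.105), so they are not separate checks. The Id2 level of poly(I:C) replicate 3, which held Xist, lay between those of the other poly(I:C) libraries.

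**Figure D2:**
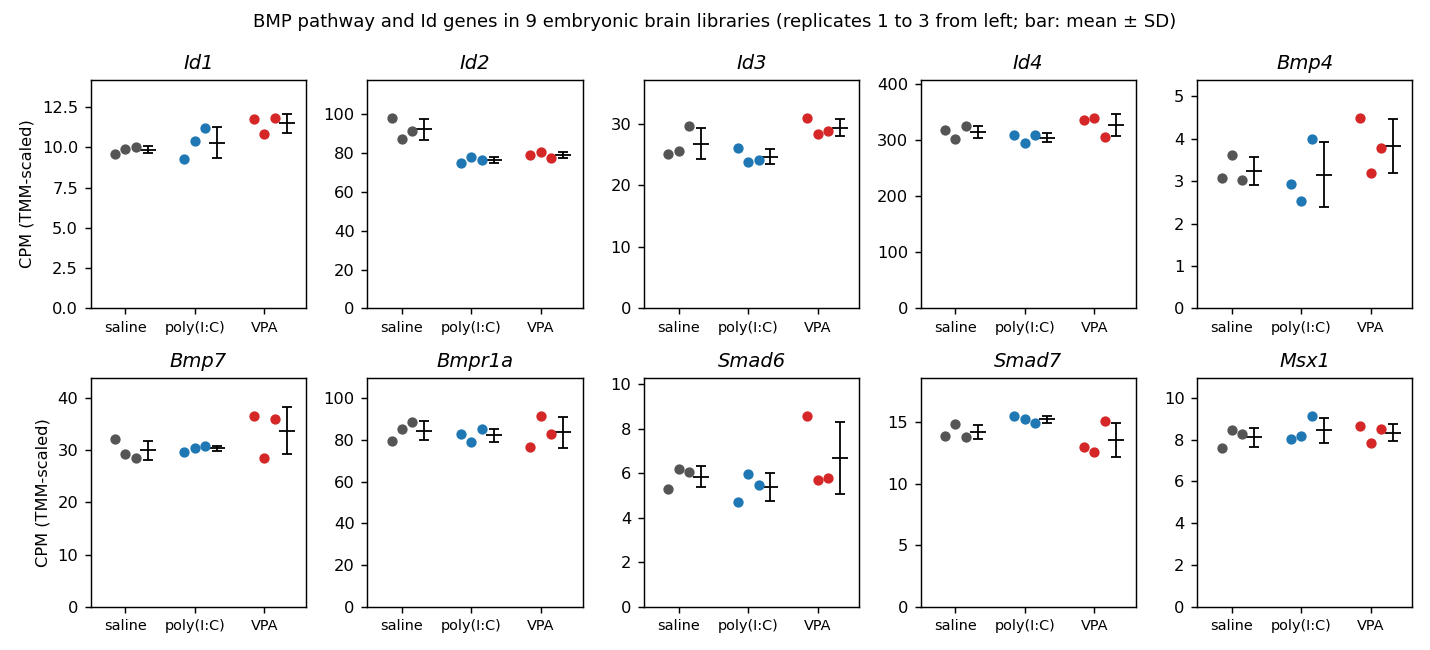
CPM of the 10 genes in each library, 1 panel per gene with a vertical axis from 0; points are replicates 1 to 3 of each group from left to right, and the bar beside them is the mean ± SD (VPA: valproic acid). Id2 is lower in all 6 exposed libraries than in the 3 controls, and the groups of most other genes overlap.

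Id4, the most abundant of the family here and a gene of neural progenitors, was at 317, 302 and 324 CPM in control. It was at 308, 295 and 309 CPM under poly(I:C) and at 336, 339 and 305 CPM under valproic acid. The groups overlapped, and the log2 difference from control was 0.06 for valproic acid (interval -0.04 to 0.15) and -0.05 for poly(I:C) (interval -0.14 to 0.05), so both intervals exclude a fall as large as the Id2 estimate. Id2 was also read against Id4 within each library, which needs no scaling between libraries. There were 31.0, 28.9 and 28.2 Id2 counts per 100 Id4 counts in the controls, 24.3, 26.4 and 24.7 under poly(I:C) and 23.5, 23.7 and 25.4 under valproic acid. Neither exposed group overlapped the controls, and the exact permutation test over samples gave a two-sided p of 0.1 for each, the smallest that 3 against 3 libraries allow. The ratio uses the Id2 counts already tested, so it is no separate evidence of the fall. Id3 counts per 100 Id4 counts were 8.51 ± 0.599 in control, 8.11 ± 0.328 under poly(I:C) and 9.01 ± 0.586 under valproic acid (SD, n = 3), and these groups overlapped the controls.

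**Figure D3:**
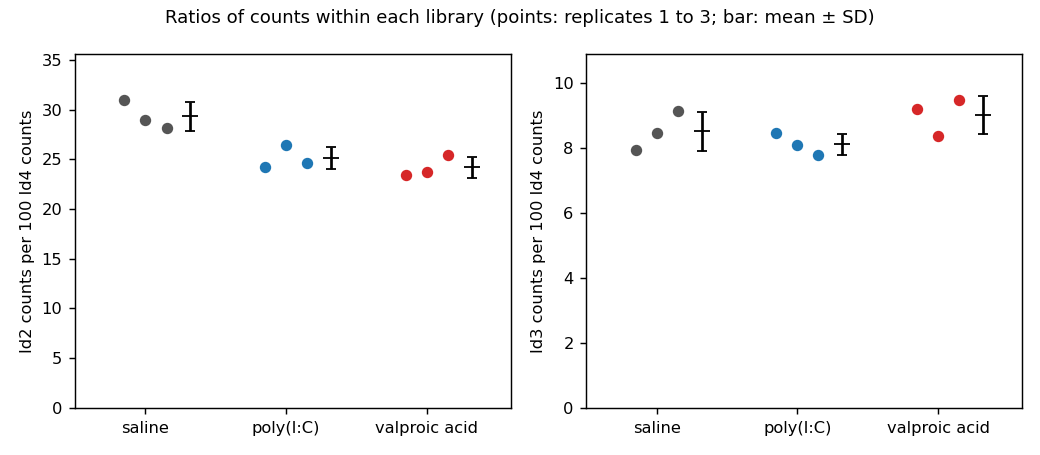
Id2 counts (left) and Id3 counts (right) per 100 Id4 counts of the same library; points are replicates 1 to 3 of each group and the bar is the mean ± SD. The Id2 ratio is at 28.2 or more in every control and at 26.4 or less in every exposed library, while the Id3 ratios of exposed and control libraries overlap.

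Id1 and Id3, known as direct BMP targets in many cell types, were not called. Id1 was at 9.61, 9.92 and 10.04 CPM in control, 9.26, 10.4 and 11.2 CPM under poly(I:C) and 11.8, 10.8 and 11.8 CPM under valproic acid. All 3 valproic acid libraries were above the controls, and 25.6% of all tested genes were separated in one direction or the other. The log2 difference of Id1 was 0.22 (interval -0.01 to 0.45, edgeR adjusted p = 0.247). Id3 was at 25.2, 25.5 and 29.6 CPM in control, 26.1, 23.9 and 24.1 CPM under poly(I:C) and 30.97, 28.3 and 28.9 CPM under valproic acid. The valproic acid libraries of Id3 lay above the poly(I:C) libraries without overlap, as 21.9% of all genes did in one direction or the other, and the log2 difference of 0.25 (interval 0.08 to 0.42) did not pass (edgeR adjusted p = 0.107). Against control the log2 difference of Id3 was 0.13 under valproic acid and -0.12 under poly(I:C), with both intervals reaching past 0.

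The ligand genes Bmp4, a BMP of the dorsal midline, and Bmp7, made by choroid plexus and meninges, gave no call. Bmp4 was rare, with 46 to 77 counts per library: 3.07, 3.61 and 3.03 CPM in control, 2.92, 2.52 and 3.999 CPM under poly(I:C) and 4.49, 3.20 and 3.79 CPM under valproic acid. The groups overlapped, and the 95% interval of the valproic acid fold ran from 0.869 to 1.61, so a change within it is not excluded. Bmp7 was at 32.01, 29.3 and 28.4 CPM in control, 29.7, 30.4 and 30.8 CPM under poly(I:C) and 36.4, 28.5 and 36.01 CPM under valproic acid. Valproic acid replicates 1 and 3 were above every other library and replicate 2 was among the controls, with a log2 difference of 0.17 (interval -0.02 to 0.36, edgeR adjusted p = 0.278). The summed CPM of 11 meningeal and mesenchymal markers was high in the same libraries, at 917 and 942 in valproic acid replicates 1 and 3, 728 in replicate 2, 751 to 794 in control and 666 to 700.1 under poly(I:C). Of these 11, 4 (Col1a1, Col3a1, Dcn and Lum) rose in valproic acid against poly(I:C), where 2.59% of all tested genes were called. Only Col1a1 of these kept its call in the 5 fits that left out a library other than valproic acid replicate 2, and none kept it with Y-linked expression or Xist as a covariate. Against control 0 were called by edgeR or DESeq2 in either exposure, and 4 (valproic acid) and 3 (poly(I:C)) had an unadjusted p under 0.05 in edgeR. Of all tested genes 22.1% and 12% had such a p. Without valproic acid replicate 2 the count for valproic acid went from 0 to 5 of 11. Their part in the Bmp7 values was not tested.

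Bmpr1a, a type I receptor of neural progenitors, was at 79.5, 85.1 and 88.6 CPM in control. It was at 82.8, 78.9 and 85.1 CPM under poly(I:C) and at 76.5, 91.4 and 82.9 CPM under valproic acid. The groups overlapped, and the intervals of the fold against control were 0.901 to 1.09 for valproic acid and 0.887 to 1.07 for poly(I:C).

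The inhibitory Smads, which BMP signalling induces and which then block it, gave no call. Smad6 was at 5.31, 6.20 and 6.06 CPM in control, 4.71, 5.98 and 5.47 CPM under poly(I:C) and 8.57, 5.70 and 5.82 CPM under valproic acid. Valproic acid replicate 1 stood above the other 8 libraries, and without it the log2 difference from control went from 0.19 to -0.0255. Smad7, which also restrains the related transforming growth factor beta pathway, was at 13.9, 14.9 and 13.8 CPM in control, 15.5, 15.2 and 14.9 CPM under poly(I:C) and 13.00, 12.6 and 15.1 CPM under valproic acid. The poly(I:C) libraries of Smad7 were just above the controls, where 18.4% of all genes did not overlap, with a log2 difference of 0.10 (interval -0.10 to 0.30, edgeR adjusted p = 0.722). Smad6 is also a gene of blood vessels, and the summed CPM of 10 endothelial markers was 359.6 to 376 in control, 343 to 363 under poly(I:C) and 356 to 391 under valproic acid. Under valproic acid 5 of the 10 had a higher and 5 a lower mean than control, with a median log2 difference of -0.0195; 1 was called, Pecam1, which rose (35.3 ± 1.60 to 41.7 ± 1.27 CPM, SD, n = 3, edgeR adjusted p = 0.0310). That call was lost in 4 of 6 fits that left out 1 library (edgeR adjusted p up to 0.108). Of all tested genes 6.35% were called for valproic acid against control.

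Msx1, a homeobox gene of the dorsal midline and a classical BMP target, was at 7.61, 8.45 and 8.25 CPM in control, 8.02, 8.17 and 9.12 CPM under poly(I:C) and 8.63, 7.86 and 8.49 CPM under valproic acid. The groups overlapped, with fold intervals against control of 0.864 to 1.22 for valproic acid and 0.876 to 1.23 for poly(I:C). The summed CPM of 12 choroid plexus and roof plate markers overlapped too, at 576 to 716 in control, 593 to 677 under poly(I:C) and 618 to 687 under valproic acid. Of these 12, 0 were called by edgeR or DESeq2 in any comparison. An unadjusted p under 0.05 in edgeR was seen for 2 in valproic acid against control, 0 in poly(I:C) against control and 1 between the exposures. Of all tested genes 22.1%, 12% and 16.7% had such a p.

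**Figure D4:**
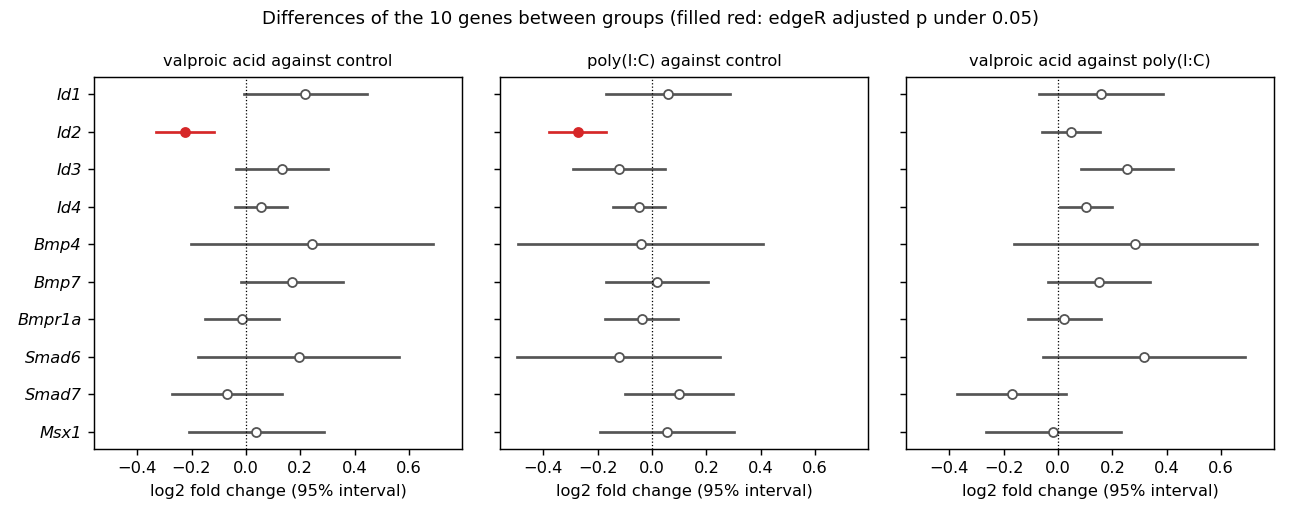
Log2 fold change (horizontal axis) with its 95% interval for each of the 10 genes in the 3 comparisons; filled red marks an edgeR adjusted p under 0.05. Only the intervals of Id2 against control are red, and those of Bmp4 and Smad6 are the widest.

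The rest of the pathway was read from lists of 54 other genes, of which 51 could be tested. Under valproic acid 2 of the 51 rose against control (Smad5 and Prdm16) and 0 fell, and 15 had an unadjusted p under 0.05 in edgeR, beside 6.35% of all tested genes called and 22.1% at that unadjusted p. Under poly(I:C) 0 were called by edgeR or DESeq2 and 7 had an unadjusted p under 0.05 in edgeR, beside 0.536% and 12% of all. Between the exposures 1 was called, Smad1, lower under valproic acid, and 11 had an unadjusted p under 0.05, beside 2.59% and 16.7% of all. With Y-linked expression or Xist as a covariate 0 of the 51 were called in edgeR in any of the 3 comparisons. The median log2 difference of the 51 was 0.06 for valproic acid, 0.03 for poly(I:C) and 0.07 between them. Of the signalling Smads, Smad5 was at 196, 185 and 194 CPM in the controls, against 217, 218 and 207 CPM with valproic acid, 1.12-fold higher (log2 SE 0.0435, edgeR adjusted p = 0.0422). All valproic acid libraries were above the controls, where 25.6% of all tested genes did not overlap, in one direction or the other. The call of Smad5 was lost in 6 of 6 fits that left out 1 library (edgeR adjusted p up to 0.130). Smad1 was at 88.1, 89.8 and 84.2 CPM under poly(I:C) and 74.6, 76.2 and 75.5 CPM under valproic acid, 1.16-fold lower under valproic acid (edgeR adjusted p = 0.0427). That call was also lost in 6 of 6 such fits (edgeR adjusted p up to 0.181). Against control Smad1 was called under neither exposure. Its unadjusted edgeR p against control was under 0.05 for poly(I:C), where it was higher, and not for valproic acid. Smad4, the shared partner, was at 112 ± 5.26 CPM in control, 119.7 ± 3.96 CPM under poly(I:C) and 124 ± 4.68 CPM under valproic acid (SD, n = 3), with edgeR adjusted p of 0.458 and 0.0912 against control.

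Among the listed targets, Prdm16, a transcriptional regulator of radial glia and choroid plexus, rose under valproic acid from 51.4, 51.9 and 51.8 CPM to 59.8, 62.7 and 61.6 CPM. This was a 1.19-fold difference (log2 SE 0.0513, edgeR adjusted p = 0.0126) without overlap, where 25.6% of all tested genes did not overlap. The call of Prdm16 was lost in 0 of 6 fits that left out 1 library, and lost with Y-linked expression or Xist as a covariate. The log2 difference of Prdm16 was 0.25, against 0.20 with Y-linked expression (edgeR adjusted p = 0.131) and 0.12 with Xist (edgeR adjusted p = 0.724). Dlx5, a gene of ventral interneuron precursors, was at 40.1 ± 1.58 CPM in the controls, against 43.5 ± 3.06 CPM with poly(I:C) (SD, n = 3; edgeR adjusted p = 0.575).

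With all 9 libraries, no other ligand, receptor, antagonist or intracellular regulator on the lists was called in any comparison by edgeR or DESeq2. Without valproic acid replicate 2, edgeR called 1 antagonist between the exposures, Fstl1 (log2 difference 0.19, adjusted p = 0.0459), and 1 receptor in each valproic acid comparison. For poly(I:C) against control 1 ligand was called without poly(I:C) replicate 2 and 1 without a filter on low counts. An unadjusted edgeR p under 0.05 was found, for valproic acid against control, poly(I:C) against control and the exposures against each other in turn, for 1, 2 and 1 of 7 ligands. It was found for 5, 0 and 4 of 10 receptors, 3, 3 and 3 of 15 antagonists, and 1, 0 and 0 of 9 intracellular regulators. Of all tested genes 22.1%, 12% and 16.7% had such a p. In control, poly(I:C) and valproic acid in turn, the ligand gene Gdf11 was at 44.6 ± 3.20, 49.3 ± 0.615 and 49.8 ± 2.39 CPM and Bmp6 at 15.9 ± 0.879, 17.2 ± 0.804 and 18.2 ± 2.66 CPM (SD, n = 3). In the same order the type II receptor Bmpr2 was at 157 ± 5.88, 155 ± 4.23 and 164 ± 13.9 CPM and the co-receptor Neo1 at 296 ± 11.3, 305 ± 2.04 and 301 ± 14.98 CPM. Of the extracellular modulators, Fstl1 was at 144 ± 4.70, 134 ± 1.24 and 146 ± 13.2 CPM and Twsg1 at 104 ± 0.845, 103 ± 4.24 and 109.7 ± 0.966 CPM. Inside the cell, Zeb2, a Smad-binding repressor, was at 278 ± 10.7, 266 ± 8.35 and 255 ± 12.99 CPM and the ubiquitin ligase gene Nedd4l at 239 ± 3.60, 246 ± 8.28 and 249 ± 6.76 CPM.

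**Figure D5:**
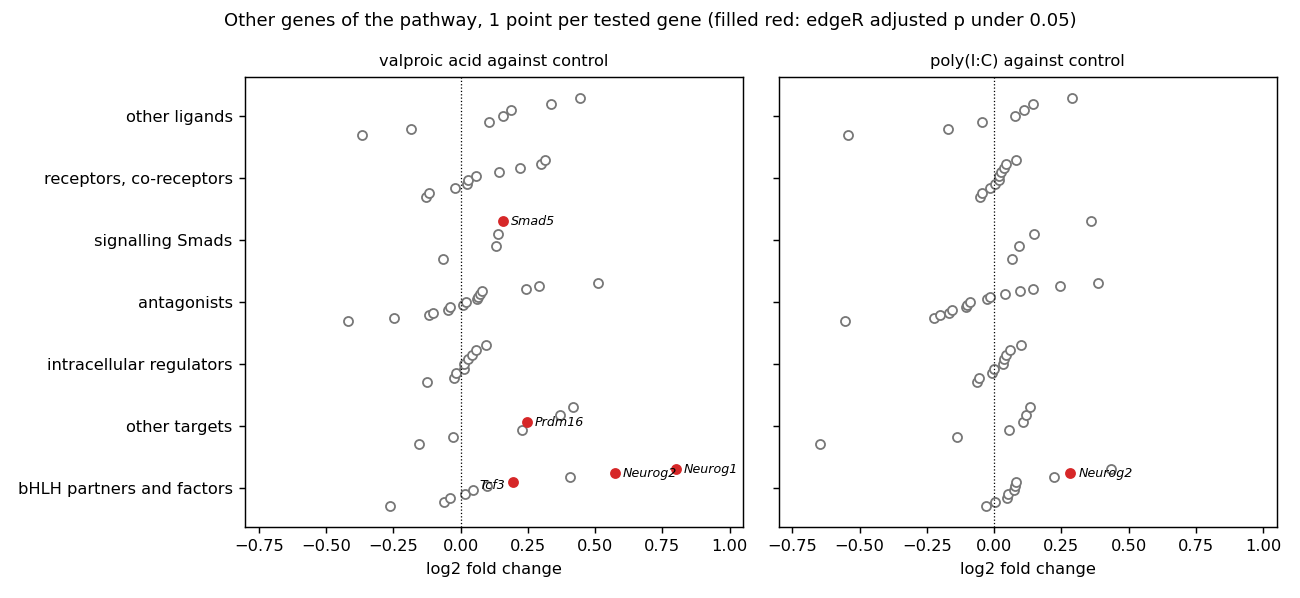
Log2 fold change against control of each tested gene of the other pathway lists, grouped by role, for valproic acid (left) and poly(I:C) (right); filled red marks an edgeR adjusted p under 0.05. Calls stand among the signalling Smads, the targets and the helix-loop-helix factors, and the other points scatter on both sides of 0.

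Downstream of the Id proteins lie the E proteins they bind and the proneural, Olig and Hes factors of the same class. Of 10 such genes 3 rose under valproic acid against control (Neurog2, Neurog1 and Tcf3), 1 under poly(I:C) (Neurog2) and 2 in valproic acid against poly(I:C) (Neurog2 and Neurog1), and 0 fell. Of all tested genes 6.35%, 0.536% and 2.59% were called in these comparisons. Neurog2, a proneural factor of cortical excitatory neurons that pairs with E proteins, was at 139, 147 and 149 CPM in control, 175, 170.4 and 184 CPM under poly(I:C) and 220.0, 219 and 208 CPM under valproic acid. The groups did not overlap, as for 25.6% (valproic acid against control), 18.4% (poly(I:C) against control) and 21.9% (between the exposures) of all tested genes. The poly(I:C) rise of Neurog2 was 1.22-fold (edgeR adjusted p = 0.00614). Neurog1 rose 1.74-fold under valproic acid (edgeR adjusted p = 0.0139). The E protein gene Tcf3 rose from 195 ± 6.31 to 224 ± 14.4 CPM (SD, n = 3; edgeR adjusted p = 0.0221). The call of Tcf3 was lost in 3 of 6 fits that left out 1 library, with edgeR adjusted p up to 0.0923. With Y-linked expression or Xist as a covariate the count against control went from 3 to 1, Neurog2: the log2 difference of Neurog1 was 0.80, 0.59 and 0.56 without a covariate, with Y-linked expression and with Xist, and that of Tcf3 0.20, 0.21 and 0.22. Neurog1 lost its call against poly(I:C) in 6 of 6 fits (edgeR adjusted p up to 0.147).

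Under valproic acid against control, where 6.35% of all tested genes were called, markers of several cell types were called. Fewer were called under poly(I:C), where 0.536% of all tested genes were. Of 5 intermediate progenitor markers 5 rose under valproic acid (Eomes, Neurog2, Btg2, Hes6 and Gadd45g). Of 8 neuron markers 4 fell under valproic acid (Map2, Stmn2, Mapt and Gap43) and 0 rose. Neurog2 also stands in the list of helix-loop-helix factors. The count of 5 stood in each fit that left out 1 library and went to 3 with Y-linked expression and to 1, Neurog2, with Xist as a covariate. The neuron count of 4 went to 0 without control replicate 1, without valproic acid replicate 1 and with either covariate, and was at most 3 without any other library. Of 10 radial glia markers 3 rose under valproic acid (Pax6, Vim and Prom1), of 7 mural cell markers 2 fell (Rgs5 and Acta2), and of 9 erythroid markers 4 rose (Hba-x, Hbb-y, Hbb-bh1 and Slc4a1). With Xist as a covariate these counts were 0, 0 and 1. The 1 erythroid gene was not among the 4 named, which all lost their calls. The summed CPM of the neuron markers was 7416 to 7606 in control and 6834 to 7235 under valproic acid. Under poly(I:C) that sum was 7371 to 7771, and 1 of the 5 intermediate progenitor markers rose (Neurog2). There 0 of the 8 neuron markers were called by edgeR or DESeq2 (2 had an unadjusted p under 0.05 in edgeR). The summed CPM of 8 microglia markers was 89.5 to 97.4 in control, 81.8 to 82.5 under poly(I:C) and 73.9 to 85.04 under valproic acid, so that all 6 exposed libraries lay below the controls. Of single tested genes 25.6% (valproic acid) and 18.4% (poly(I:C)) did not overlap the controls, in one direction or the other. Of these 8, 7 had a lower mean than control under valproic acid and 8 under poly(I:C). Csf1r and P2ry12 fell under valproic acid, from 27.9 ± 3.13 to 21.4 ± 1.65 CPM and from 9.03 ± 1.48 to 4.55 ± 1.10 CPM (SD, n = 3; edgeR adjusted p = 0.0205 and 0.00943). Under poly(I:C) 0 of the 8 were called by edgeR or DESeq2 (1 had an unadjusted p under 0.05 in edgeR, where 12% of all tested genes did). The valproic acid count went from 2 to 1 without control replicate 3, without valproic acid replicate 1 and with Y-linked expression, and to 0 with Xist. The part of these cell types in the Id2 values was not tested.

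Across the 9 libraries, the 3 of 13272 compared genes whose log2 CPM was most like that of Id2 were Arl5a (Pearson r = 0.98), Cpped1 (r = 0.97) and Ogfrl1 (r = 0.95). These correlations are a description over 9 libraries in 3 groups, picked as the highest of many. Arl5a, a small GTPase gene of the Arf family, fell from 120 CPM in control to 85.8 under poly(I:C) and 90.4 under valproic acid, log2 differences of -0.49 and -0.41 (edgeR adjusted p = 0.00205 and 0.00212). Cpped1 and Ogfrl1 were lower in the same direction without passing the test (edgeR adjusted p between 0.133 and 0.214). Among the 10 genes themselves, the r of Id2 with each of the others lay between -0.50 (Msx1) and 0.17 (Id4), while Id3 and Id4 had an r of 0.71 and Id4 and Smad7 an r of -0.94. The 45 pairs share the libraries and the scaling.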

How the data were processed

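Ribosomal RNA was depleted before library construction, per the labels' protocols. The authors deposited raw read counts per Ensembl gene, used as deposited. The submitters' processing notes name HISAT2 and GRCm39 (mm39). Counter, strand setting and annotation release: not given in the sources used here. Without strand, antisense partners cannot be told apart. Genes opposite Bmp4, Bmpr1a and Id4 had at most 8 counts in a library. Symbols and exon lengths came from GENCODE M21 (GRCm38); 4623 of 56748 IDs had no symbol.

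The filter was filterByExpr (min.count 10, min.total.count 15) and the scaling TMM (0.978 to 1.02), in edgeR 4.0.16 under R 4.3.3. A single quasi-likelihood fit of group means used every library, and each pair of groups was tested two-sided, with adjustment over 17171 genes. CPM uses the TMM factors, and correlations use log2 CPM with a prior count of 2. The script was tested on simulated data with known changes in genes drawn from all tested. Of genes changed 1.25-fold, 32% were called for valproic acid against control, 36% for poly(I:C) against control and 22% between the exposures. In the same order 8.78%, 6.12% and 3.1% of calls were false. These rates are means over genes of all levels of counts. A gene without a call may therefore still differ by that fold where its 95% interval includes it. Chi-square over degrees of freedom was 3.73 to 6.01 between replicates, so none was a copy. Fold intervals are 95% intervals of the fit.

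The 10 genes and the lists were chosen with earlier results of these data known. All 10 were named. Some listed genes are not reported here. From each other list the text names called genes (at most 4 per comparison) or, with none called, the 2 of highest mean CPM, and the 3 genes most like a called member among those of at least 1 CPM. Smad4 and the markers were named after their values were seen. Alternatives were other size factors, DESeq2 1.42.0, other filters, a replicate block, fits of the 6 libraries compared, Y-linked or Xist covariates, library sizes without abundant classes of RNA, and fits without each library.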

Additional observations from a re-analysis of the deposited data

How the results depend on the processing

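Of 450 alternative values for the 10 genes, 418 kept direction and side of the threshold, 10 lost a call and 22 changed sign; the cause was not tested, except that fits without a library hold fewer samples. For valproic acid against control, where 1090 genes were called, 1661 were called without a filter, 272 with Y-linked expression and 19 with Xist as a covariate, and 467 to 789 without 1 library. For poly(I:C) against control (92 genes) the counts were 464 without a filter, 166 with DESeq2, 42 with Xist and 38 to 63 without 1 library. Between the exposures (445 genes) they were 1057 without a filter, 111 with Y-linked expression, 39 with Xist and 113 to 294 without 1 library. Of the 10 genes, 0 were called for valproic acid with either covariate and 0 for poly(I:C) with Xist, and 0 to 1 without 1 library in both. Between the exposures 0 were called in every alternative.

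Values that changed sign belong to genes that were not called. For valproic acid against control the log2 difference was -0.0304 for Msx1 and -0.00673 for Fstl1 with Y-linked expression, and -0.31 for Bmp4, -0.13 for Msx1 and -0.0163 for Nedd4l with Xist. Without 1 library it ran from -0.00380 to 0.0784 for Msx1, -0.0851 to 0.0456 for Bmpr1a, -0.0255 to 0.30 for Smad6, -0.0441 to 0.0859 for Fstl1, -0.0124 to 0.0599 for Neo1 and -0.00928 to 0.11 for Bmpr2. For poly(I:C) against control it was -0.00330 for Id1 and -0.00270 for Msx1 with Xist. Without 1 library it ran from -0.00259 to 0.13 for Id1, -0.25 to 0.0957 for Bmp4, -0.0177 to 0.0693 for Bmp7, -0.00213 to 0.0923 for Msx1, -0.0447 to 0.00835 for Bmpr2 and -0.0440 to 0.0148 for Twsg1. Between the exposures it was -0.0362 for Bmpr1a, -0.0149 for Gdf11, -0.00315 for Bmp6 and -0.0198 for Nedd4l with Y-linked expression, and -0.0622 for Bmp4, -0.0240 for Bmpr1a and -0.0328 for Nedd4l with Xist. Without 1 library it ran from -0.0457 to 0.0849 for Bmpr1a, -0.0534 to 0.0410 for Msx1, -0.0427 to 0.17 for Bmp6, -0.0541 to 0.0174 for Neo1, -0.00711 to 0.0418 for Nedd4l and -0.0201 to 0.0482 for Gdf11.

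The replicate numbers did not pair the samples: same-numbered libraries of different groups had correlations of -0.0416 to 0.131 (9 pairs) and differently numbered ones -0.0906 to 0.0483 (18 pairs). With the replicate block 912, 88 and 344 genes were called in the 3 comparisons and Id2 stayed called in both against control, while the block ended the calls between the exposures of Smad1 (edgeR adjusted p = 0.0703) and Neurog1 (0.0561). Depth limits Bmp4 and Smad6 most, with 46 to 77 and 87 to 147 counts per library.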
